A study of Homo sapiens with 8 samples.

Results

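The protein-coding histone genes named by family (linker histone H1 and core histones H2A, H2B, H3 and H4) were followed in IMR32 cells, a MYCN-amplified human neuroblastoma line, after treatment with CR31B, a rocaglate inhibitor of the RNA helicase eIF4A. Members were taken by current gene symbol: of 92 matching symbols in the deposited table, 74 were protein-coding, 39 had a mean of at least 10 reads over the 8 libraries, and 38 of these are described. The whole table holds 58787 gene identifiers. The 38 genes comprise 4 H1, 10 H2A, 14 H2B, 5 H3 and 5 H4 genes. In the genome, 30 lie in the HIST1 cluster on chromosome 6, 4 in HIST2 and 2 in HIST3 on chromosome 1, and 2 lie outside any cluster: H1-10 on chromosome 3 and H4C16 on chromosome 12. H1-10 therefore meets the naming rule without being a cluster gene, and its level is given apart from the others.

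Polyadenylated RNA was collected 6 h after IMR32 cells, which the labels call wild type and give a brain origin, were given either CR31B (the IC50 concentration) or 0.1% DMSO as vehicle. Every group is the same line, seeded and left to adhere for 48 h before the medium was changed, so the study describes 1 cell line at 1 time and 1 dose. Each group has 4 libraries with numbers 1 to 4, which the series calls biological replicates. Total counts ran from 43687828 to 64715535 per library. The 9 adrenergic neuroblastoma markers summed to between 4877 and 6850 CPM (counts relative to the library's scaled total), with MYCN alone between 2304 and 2966 CPM. The 5 mesenchymal markers summed to between 334 and 586 CPM and the 2 blood markers to between 0.242 and 0.886 CPM. The 3 epithelial markers summed to at most 0.253 CPM. In each of these lists 1 gene was at 0 in all libraries: PRRX1 (mesenchymal), CD3E (blood) and KRT18 (epithelial).

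Replicate 1 was sequenced paired-end and replicates 2 to 4 single-end, and the pair of number 1 stands apart: across all genes its libraries ran against their labels relative to the other 3 pairs. An exchange of its 2 labels and another difference of this pair cannot be told apart. Counts of calls are therefore given for all 8 libraries as labelled, with sequencing layout in the model, and for the 6 single-end libraries alone; a value with no fit named is from the single-end libraries. For number 1 the text speaks of the library labelled CR31B or DMSO.

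Replication-dependent histone genes supply the histones that package newly made DNA, and their mRNAs build up in S phase and are lost when DNA synthesis stops. These genes lack introns, lie in clusters, often as head-to-head H2A and H2B pairs sharing a short promoter, and are transcribed under NPAT, a cofactor activated by cyclin E and CDK2. Their mRNAs usually end without a poly(A) tail, just after a conserved stem-loop bound by SLBP, so a library made from polyadenylated RNA samples mainly the minority of transcripts that read on to a poly(A) signal. H1-10, by contrast, is a linker histone gene whose mRNA is polyadenylated and made outside S phase too.

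The stem-loop was located in the annotated transcripts because it marks where a transcript without a poly(A) tail would end. The 16-base consensus was found in 22 of the 38 genes, against 61 of 58676 annotated genes (0.104%) in GENCODE release 29 (GRCh38). Of the genes without it, 12 have only coding-length models and cannot show it, and 4 have longer models that do not hold it: H1-10, H1-4, H2BC11 and H4C3. In the sites shown, in DNA letters 5′ to 3′ on the transcript strand, capitals mark the stem-loop. They are those of 2 genes that were called lower below (H2BC21 and H2AC11), of H2BC9 and H2BC5, and of 1 gene each from H3 and H4.
H2BC21 (chr1:149886183-149886208, minus strand): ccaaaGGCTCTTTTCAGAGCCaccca
H2AC11 (chr6:27133510-27133535, plus strand): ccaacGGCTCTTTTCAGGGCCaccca
H2BC9 (chr6:26252050-26252075, plus strand): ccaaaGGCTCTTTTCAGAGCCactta
H2BC5 (chr6:26158582-26158607, plus strand): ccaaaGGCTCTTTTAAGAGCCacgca
H3C6 (chr6:26225591-26225616, plus strand): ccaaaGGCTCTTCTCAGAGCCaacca
H4C8 (chr6:26285126-26285151, minus strand): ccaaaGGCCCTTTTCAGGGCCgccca

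The most common form, that of H2BC21 and H2BC9, was shared by 13 genes of the H2A, H2B and H3 families. The H2BC5 form was found in 3 H2B genes, the H2AC11 and H3C6 forms in 1 gene each, and the H4C8 form in 4 genes, all of them H4. In 17 of the 22 genes at least 1 annotated transcript runs more than 100 bases past the loop, by between 116 and 1917 bases. The longest such run is 1729 bases for H2BC21, 1761 for H2AC11, 1640 for H2BC9 and 1655 for H4C8. In the other 5 every transcript with the loop ends within 100 bases of it; that of H2BC5 ends 39 bases after it, and its other transcript lacks the loop.

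Promoters are shown for the 3 genes called lower in the single-end libraries. Of the elements marked below, only the octamer was confined to promoters of their families, H2A and H2B, and not all of those held it. RefSeq sequences (GRCh38.p14, 250 bases before the start to 50 after) matched 35 of the 38 genes; H2AC12, H3C12 and H4C3 were not matched. Capitals mark, on either strand and overlapping where they meet, the octamer ATTTGCAT bound by POU2F1, the CCAAT box (letters CCAAT) and the TATA box (letters TATAAA).
H2AC11 (chr6:27132793-27133092, plus strand): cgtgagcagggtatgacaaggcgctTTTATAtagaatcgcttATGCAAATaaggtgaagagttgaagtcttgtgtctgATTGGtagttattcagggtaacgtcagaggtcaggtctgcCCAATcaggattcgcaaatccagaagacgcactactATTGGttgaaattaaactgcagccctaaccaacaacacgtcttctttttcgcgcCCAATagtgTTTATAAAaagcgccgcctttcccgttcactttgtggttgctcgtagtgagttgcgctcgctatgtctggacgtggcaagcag
H2BC12 (chr6:27146809-27147108, minus strand): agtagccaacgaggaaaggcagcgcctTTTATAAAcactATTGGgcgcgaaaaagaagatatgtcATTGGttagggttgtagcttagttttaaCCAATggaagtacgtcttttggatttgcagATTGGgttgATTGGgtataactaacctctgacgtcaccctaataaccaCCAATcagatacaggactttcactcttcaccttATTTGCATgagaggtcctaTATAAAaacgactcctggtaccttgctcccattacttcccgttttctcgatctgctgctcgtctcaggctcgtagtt
H2BC21 (chr1:149886633-149886932, minus strand): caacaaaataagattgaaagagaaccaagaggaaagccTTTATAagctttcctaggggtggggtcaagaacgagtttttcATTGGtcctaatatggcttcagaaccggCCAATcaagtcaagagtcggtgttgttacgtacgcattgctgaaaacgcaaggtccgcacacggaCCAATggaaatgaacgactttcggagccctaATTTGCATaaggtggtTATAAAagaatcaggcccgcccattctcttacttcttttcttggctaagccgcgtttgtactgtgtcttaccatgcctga

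The octamer was present in 16 of 35 matched promoters (45.7%) and in 623 of all 35116 (1.77%). It was in 6 of 9 H2A and 10 of 14 H2B promoters and in none of the 4 H1, 4 H3 and 4 H4 promoters. CCAAT was in 30 of 35 (85.7%; 34.6% of all promoters), with none in the 4 H4 promoters, and TATAAA in 23 of 35 (65.7%; 11.5% of all). The H1 box AAACACA was in 3 of 4 H1 promoters, 4 of the 35 in all (11.4%; 5.64% of all). These are matches of letters within a window and not measured binding sites.

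The linker histone gene H1-10 held 92.5% of the summed CPM of the 38 genes, and the other 37 held 7.48%. Per kilobase of exon the mean level over the 8 libraries was 373 CPM for H1-10, followed by 21.7 for H2BC12, 8.38 for H2AC20 and 4.92 for H1-2. The models of H2BC12, H2AC20 and H1-2 hold the coding sequence alone, so their values cover that stretch only. On the CPM scale, which is not corrected for length, 11 of the 38 genes were at 1 CPM or more and 27 under it, so the fitted changes of most members are imprecise. The median standard error of a single-end log2 fold change was 0.30 for the 27, 0.15 for the 11 and 0.087 over all tested genes. Another 35 protein-coding histone genes fell under the minimum of 10 reads and 12 of these had no read in any library. Of the 35, 11 shared 85.3% to 100% of their transcript sequence with other genes, and 24 shared none. Of the 12 without a read, 5 shared 96.9% to 100% and 7 shared none. Low or absent counts of the genes with shared sequence therefore need not mean absent transcripts. Whether their reads were left uncounted was not tested. The gene just inside the minimum, H3C13, had a mean of 10.1 reads, and H2AC21, just outside, 9.75.

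**Figure D1:**
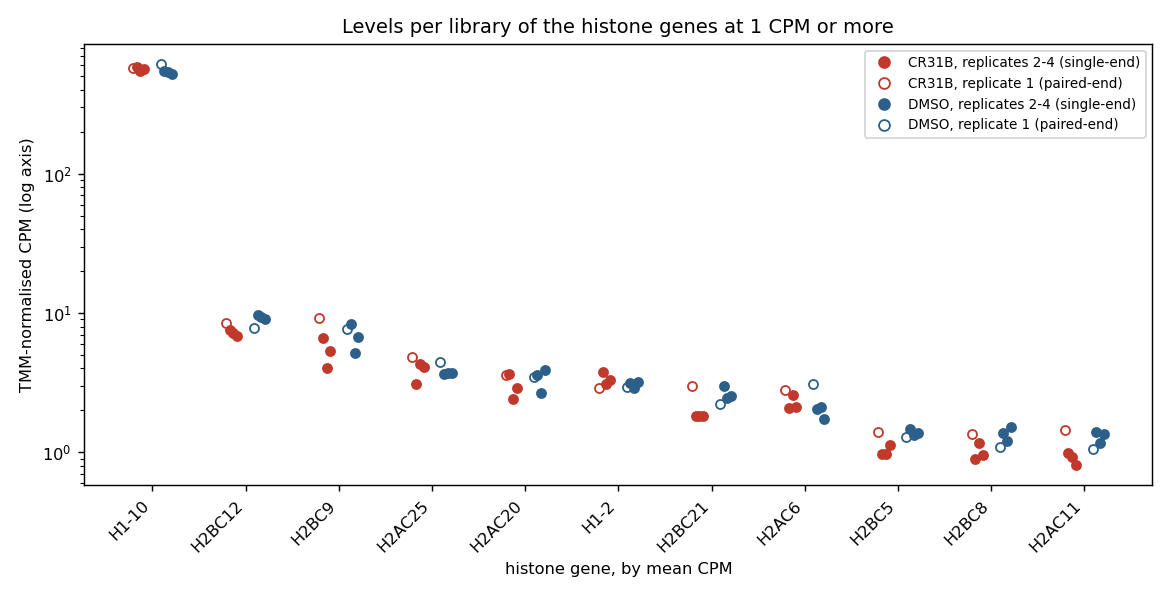
Level of each of the 11 histone genes at 1 CPM or more in each of the 8 libraries (TMM-normalised CPM, log axis); filled points are single-end libraries, open points replicate 1, red CR31B and blue DMSO. H1-10 lies near 562 CPM on average, and no other gene passes 10 CPM.

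Over all 8 libraries as labelled no gene was called: 0 of 16518 tested genes (0%) and 0 of 38 histone genes had an adjusted p under 0.05 by edgeR's quasi-likelihood test with Benjamini-Hochberg adjustment. At an unadjusted p under 0.05 there were 205 genes and 0 histone genes, and the smallest adjusted p of a histone gene was 0.707. DESeq2 and limma voom also called 0 genes. The median log2 fold change (CR31B over DMSO) was -0.076 over the 38 genes and 0.0043 over all genes tested.

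In the 6 single-end libraries 6901 of 16696 genes were called (41.3%; 23.8% higher and 17.6% lower with CR31B). Among the 38 histone genes, H2AC11, H2BC12 and H2BC21 were lower, none was higher, and 35 were not called. All 38 passed the filter on low counts in both fits. That share is below the background of all genes. Of genes under 1 CPM 10.4% were called (6.12% lower), and 0 of the 27 histone genes there, with a smallest adjusted p of 0.0599 (H3C13). Of genes at 1 CPM or more 49.7% were called, 20.7% lower, against 3 of the 11 histone genes, all lower. The median log2 fold change of the 38 was -0.27 (all tested genes -0.007), with 29 of 38 below 0 (50.7% of all genes). Over the 36 cluster genes the median was -0.28 with 29 below 0. In bulk RNA fewer cells in S phase and less histone mRNA per cell cannot be told apart.

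Groups did not overlap among the single-end libraries for 9 histone genes with CR31B below (24.4% of all genes) and for 1 with CR31B above (27.7%), H1-10. In all 3 same-numbered pairs 14 histone genes were lower with CR31B (34.1% of all genes) and 3 higher (35.6%). The median log2 difference over the 38 genes was -0.22, -0.19 and -0.40 in the pairs of number 2, 3 and 4 (SD 0.114) and 0.31 in that of number 1, where the median over all genes was 0.0036. Blocking on replicate number among these 6 libraries called 5 histone genes lower and none higher, H2BC5 and H2BC9 being added (51.1% of all genes called, 28.1% higher and 23.1% lower).

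**Figure D2:**
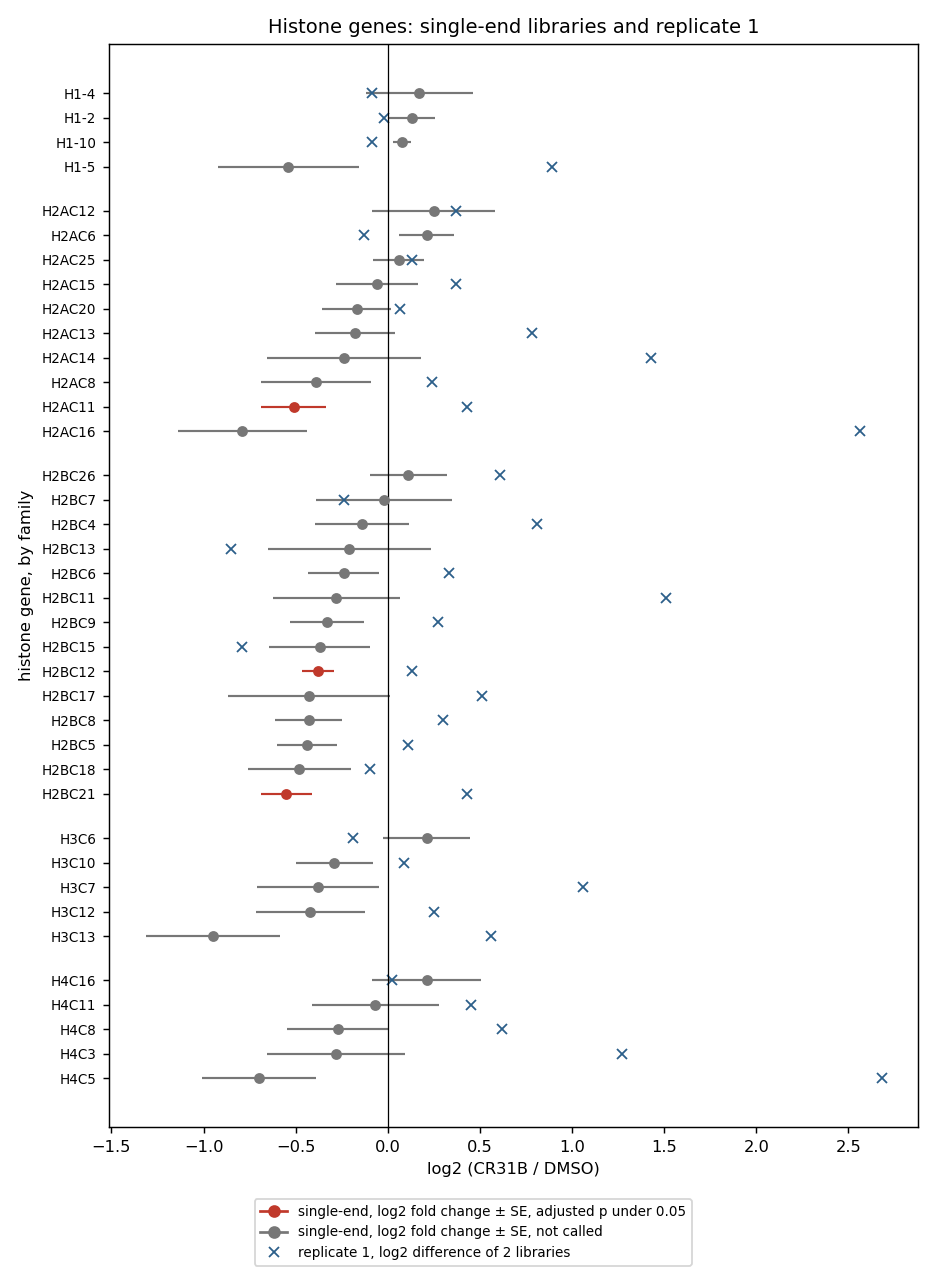
Log2 ratio of CR31B to DMSO for each of the 38 histone genes, by family: points are the single-end fits (3 libraries against 3) with their standard error, red where the adjusted p is under 0.05, and crosses are the difference between the 2 libraries of replicate 1. Most points lie left of 0 (29 of 38) and most crosses on the other side of 0 from their point (30 of 38). For the crosses the share over all tested genes was not computed.

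The 4 H1 genes, which encode linker histones binding the DNA between nucleosomes, had a median log2 fold change of 0.10 in the single-end libraries, with 1 below 0 and none called; under upper-quartile scaling the median was 0.0087 with 2 below 0, and over 8 libraries 0.064 with 1 below 0. H1-10 (ENSG00000184897; chr3:129314771-129316277, minus strand), the most abundant of the 38, held nearly the same level in all libraries. It measured 578, 580, 549 and 564 CPM in CR31B replicates 1 to 4 and 614, 547, 539 and 524 CPM in DMSO. The single-end groups did not overlap, but the log2 fold change of 0.075 ± 0.0491 was not called (edgeR adjusted p = 0.254). An opposite-strand gene covers 22.9% of its exonic bases, and the strand setting of the counts is not given in the sources used here. H1-2, the most abundant clustered H1 gene, measured 2.91, 3.77, 3.07 and 3.29 CPM with CR31B and 2.95, 3.15, 2.89 and 3.21 CPM with DMSO, overlapping throughout (log2 fold change 0.13 ± 0.127, edgeR adjusted p = 0.429). H1-4 (0.17 ± 0.29) and H1-5 (-0.54 ± 0.384) were under 1 CPM and not called.

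H2A genes encode the core histone that pairs with H2B in the nucleosome. Of the 10 measured, 1 was lower, none higher and 9 not called in the single-end libraries, with a median log2 fold change of -0.18 and 7 below 0. The median was 0.04 with the GC and length offsets described further on and 0.056 over 8 libraries, with 4 of 10 below 0 in each. H2AC11 (ENSG00000196787; chr6:27133042-27135291, plus strand), whose annotated transcript runs past the loop, was the 1 called. It measured 0.991, 0.932 and 0.807 CPM in CR31B replicates 2 to 4 and 1.41, 1.16 and 1.36 CPM in DMSO, and 1.44 and 1.05 CPM in the replicate 1 libraries labelled CR31B and DMSO. Without replicate 1 every CR31B library was below every DMSO library, and with it they overlapped. The log2 fold change was -0.51 ± 0.176 (edgeR adjusted p = 0.0392), and over 8 libraries -0.28 ± 0.205 (edgeR adjusted p = 0.707). The call was lost with DESeq2 (adjusted p = 0.0982) and when any of CR31B replicates 2, 3 or 4 or DMSO replicates 2 or 4 was left out, and held without DMSO replicate 3.

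The 2 most abundant H2A genes among the members overlapped between the groups. H2AC25, of the HIST3 cluster (chr1:228456979-228457873), measured 4.86, 3.11, 4.31 and 4.1 CPM with CR31B and 4.43, 3.65, 3.7 and 3.72 CPM with DMSO (single-end log2 fold change 0.059 ± 0.138, edgeR adjusted p = 0.764). H2AC20, of HIST2 (chr1:149886975-149887364), measured 3.61, 3.62, 2.43 and 2.89 CPM with CR31B and 3.45, 3.57, 2.65 and 3.91 CPM with DMSO (-0.17 ± 0.185, edgeR adjusted p = 0.486). H2AC6 was at 0.21 ± 0.151 (edgeR adjusted p = 0.304), and the remaining H2A genes were under 1 CPM.

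H2B is the family with the most measured members. In the single-end libraries 2 of 14 were lower (17.6% of all genes), none higher and 12 not called, the median log2 fold change was -0.35, and 13 of 14 were below 0. With the offsets 1 was lower and the median was -0.21, and over 8 libraries none was called and the median was -0.22 with 11 below 0. The families were not tested against each other. Their summed level was 21.7, 19.2 and 20.3 CPM in CR31B replicates 2 to 4 and 28.6, 24.1 and 25.8 CPM in DMSO (20.4 ± 1.27 against 26.2 ± 2.24, SD, n = 3 each). These groups did not overlap, but the replicate 1 libraries, at 29.2 CPM labelled CR31B and 25 CPM labelled DMSO, did. The largest parts of the H2B sum were H2BC12 and H2BC9. Their single-end means were 7.21 and 5.35 CPM with CR31B and 9.39 and 6.74 CPM with DMSO. The 10 H2A genes together gave 11.9, 12.3 and 11.8 CPM with CR31B and 13.1, 11.6 and 13.2 CPM with DMSO in the single-end libraries, which overlapped.

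H2BC12 (ENSG00000197903; chr6:27146418-27146798, minus strand) was the most abundant core histone gene among the members, which leave out the replication-independent core histone genes such as H3-3B. It measured 7.53, 7.23 and 6.86 CPM in CR31B replicates 2 to 4 and 9.72, 9.33 and 9.13 CPM in DMSO, so the groups did not overlap (7.21 ± 0.338 against 9.39 ± 0.299, SD, n = 3 each). Its log2 fold change was -0.38 ± 0.0866 (0.768-fold, edgeR adjusted p = 0.00538). The call ended with the GC and length offsets (-0.15, edgeR adjusted p = 0.178) and without the pair of number 4. The replicate 1 libraries measured 8.54 CPM labelled CR31B and 7.79 CPM labelled DMSO, and over 8 libraries the value was -0.25 ± 0.116 (edgeR adjusted p = 0.707). Its annotated model is the coding sequence of 381 bases, and 50.5% of its 75-base windows also occur in other genes, so its reads may be shared with those copies.

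H2BC21 (ENSG00000184678; chr1:149884459-149886652, minus strand), of HIST2, measured 1.81, 1.83 and 1.81 CPM in CR31B replicates 2 to 4 and 2.99, 2.47 and 2.55 CPM in DMSO. The groups did not overlap, and the 3 CR31B libraries were nearly equal (1.82 ± 0.00962 against 2.67 ± 0.279, SD, n = 3 each). Its log2 fold change was -0.55 ± 0.137 (0.682-fold, edgeR adjusted p = 0.00843). In replicate 1 it measured 3.01 CPM labelled CR31B and 2.23 CPM labelled DMSO, and over 8 libraries -0.31 ± 0.19 (edgeR adjusted p = 0.707). Leaving out the pair of number 2 or of number 4 ended this call, and leaving out that of number 4 also ended those of H2BC12 and H2AC11.

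H2BC9 (chr6:26251651-26253710, plus strand) varied more between replicate numbers than between treatments. It measured 9.23, 6.67, 4.06 and 5.33 CPM with CR31B and 7.64, 8.31, 5.2 and 6.72 CPM with DMSO, numbers 1 to 4 in order. The groups overlapped, but within each single-end number CR31B was the lower, by 0.32, 0.36 and 0.33 on the log2 scale. Its single-end log2 fold change was -0.33 ± 0.2 without the block (edgeR adjusted p = 0.214) and -0.33 ± 0.0813 with it (edgeR adjusted p = 0.00633), and over 8 libraries it was at -0.18 (edgeR adjusted p = 0.742).

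H2BC5, whose 1 annotated transcript with the loop ends near it, measured 0.972, 0.966 and 1.12 CPM in CR31B replicates 2 to 4 and 1.46, 1.32 and 1.38 CPM in DMSO. The groups did not overlap, and the log2 fold change of -0.44 ± 0.163 fell just outside the threshold (edgeR adjusted p = 0.0501; 0.0383 with the block). In replicate 1 it measured 1.4 CPM labelled CR31B and 1.29 CPM labelled DMSO. H2BC8, next to H2AC8 in HIST1, was at -0.43 ± 0.18 (edgeR adjusted p = 0.0784). H2BC26, the HIST3 partner of H2AC25, was the 1 H2B gene above 0, at 0.11 ± 0.209.

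**Figure D3:**
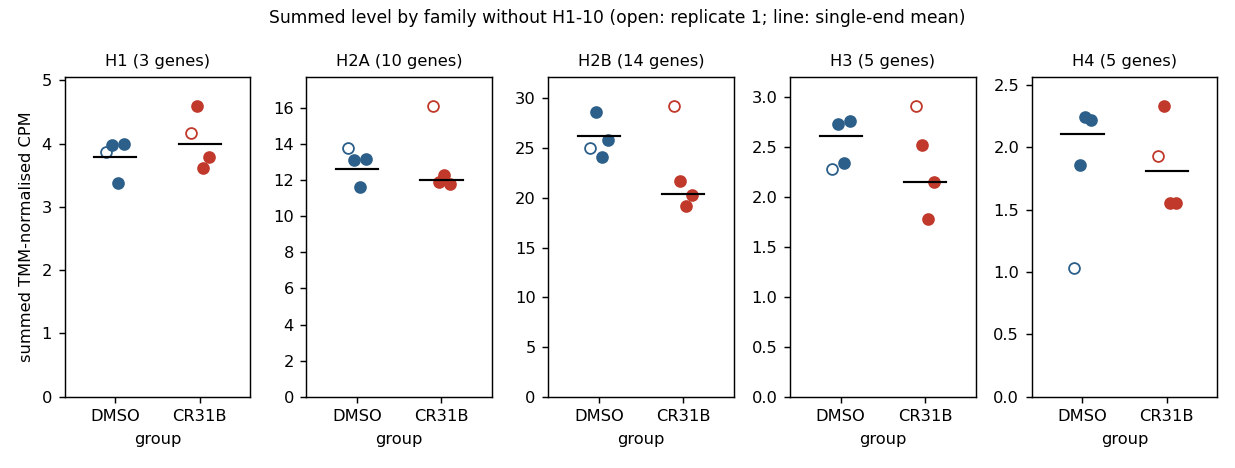
Summed TMM-normalised CPM of the kept genes of each family in each library, without H1-10; open points are replicate 1, filled points the single-end libraries and lines their means. Only the 14 H2B genes have single-end groups that do not overlap, at 19.2 to 21.7 CPM with CR31B and 24.1 to 28.6 CPM with DMSO. H2BC12 and H2BC9 are the largest parts of the H2B sum.

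H3 and H4 genes form the core tetramer of the nucleosome, and none of the 5 measured in each family was called in the single-end libraries. The medians were -0.38 for H3 and -0.27 for H4, with 4 of 5 below 0 in each. With the offsets they were -0.17 and -0.10, and over 8 libraries -0.19 and -0.0069, with 3 of 5 below 0 in each. All 10 genes were under 1 CPM. H3C10 measured 0.534, 0.587 and 0.739 CPM in CR31B replicates 2 to 4 and 0.776, 0.726 and 0.759 CPM in DMSO (-0.29 ± 0.207, edgeR adjusted p = 0.296), and 0.797 and 0.743 CPM in replicate 1. H3C12 was at -0.42 ± 0.298 (edgeR adjusted p = 0.286), H4C8 at -0.27 ± 0.276 (edgeR adjusted p = 0.467) and H4C11 at -0.068 ± 0.343 (edgeR adjusted p = 0.894).

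H3C12 measured 0.667, 0.328 and 0.426 CPM in the 3 single-end CR31B libraries and 0.728, 0.489 and 0.701 CPM in DMSO, which overlapped. H4C8 gave 0.648, 0.414 and 0.336 CPM with CR31B and 0.534, 0.518 and 0.662 CPM with DMSO, also overlapping. H4C11 gave 0.591, 0.345 and 0.269 CPM with CR31B and 0.291, 0.533 and 0.448 CPM with DMSO. None of H3C12, H4C8 and H4C11 separated the groups. H4C5 did, with CR31B below, but was not called (-0.70 ± 0.311, edgeR adjusted p = 0.098). H4C11 shares 79.6% of its 75-base windows with other genes, and H3C12 38.8%. H3C13, at the edge of the count minimum, had the lowest value of the 38, -0.95 ± 0.364 (edgeR adjusted p = 0.0599). It measured 0.133, 0.138 and 0.112 CPM with CR31B and 0.275, 0.178 and 0.311 CPM with DMSO, without overlap. Other genes share 70.3% of the windows of H3C13.

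By position, 2 of the 30 HIST1 genes were called lower in the single-end libraries and none higher (17.6% and 23.8% of all genes), with a median of -0.28 and 25 below 0; with the offsets none was lower and 1 higher. Of the 4 HIST2 genes 1 was lower (median -0.52, 4 below 0), and neither of the HIST3 genes was called (0.059 and 0.11). Grouped by transcript model, 2 of the 17 genes with a transcript running past the loop were lower (median -0.27), none of the 5 whose transcripts with the loop all end near it (-0.21, but 0.0091 with the offsets), and 1 of the 12 with coding-length models (-0.38). These groups were not tested against each other.

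Head-to-head neighbours did not always share a direction. Of 8 such pairs with both genes measured, whose starts lie 219 to 357 bases apart, both genes were below 0 in 5, both above 0 in 1 and of opposite sign in 2. In 3 pairs 1 gene was called and in none both. H2BC12 (-0.38) faced H2AC12 at 0.25 ± 0.334 (edgeR adjusted p = 0.587), H2BC21 (-0.55) faced H2AC20 (-0.17), and H2AC11 (-0.51) faced H2BC11 at -0.28 ± 0.345 (edgeR adjusted p = 0.556). The difference within a pair was not tested.

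Gene composition moved with these values. Offsets were fitted that take out each library's trend of counts with the GC content and length of a gene's longest annotated transcript. With them 2 histone genes were higher (H1-10 and H1-2) and 1 lower (H2BC21), with 39.7% of all genes called (20.3% higher, 19.3% lower). The median of the 38 was -0.15, with 22 below 0. For the 12 genes with coding-length models, H2BC12 and H1-2 among them, the offsets used the GC content and length of the coding stretch alone. The median of these 12 went from -0.38 to -0.16, and that of the 17 with a transcript running past the loop from -0.27 to -0.23. Whether the short models account for this was not tested. The standard error of H2BC12 was then 0.0822, and H2AC11 moved to -0.48 ± 0.177 (edgeR adjusted p = 0.0513), while H2BC21 stayed at -0.51 ± 0.137 (edgeR adjusted p = 0.0129). H1-10 came to 0.16 ± 0.0486 (edgeR adjusted p = 0.0261) and H1-2 to 0.34 ± 0.122 (edgeR adjusted p = 0.0474). With the block added to the offsets, H2AC11 and H2BC9 were called lower as well.

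Scaling also mattered. Upper-quartile scaling moved the median of all genes to -0.10 and that of the 38 to -0.37, so relative to all genes the members lay as far below as before. It called 6 histone genes lower and none higher, adding H2BC5, H2BC8 and H3C13, with 45% of all genes called (18% higher, 27% lower). The share of calls that were higher was 57.5% with the main scaling, 40% under the upper quartile, 43.1% when only totals were used and 51.2% with the offsets.

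**Figure D4:**
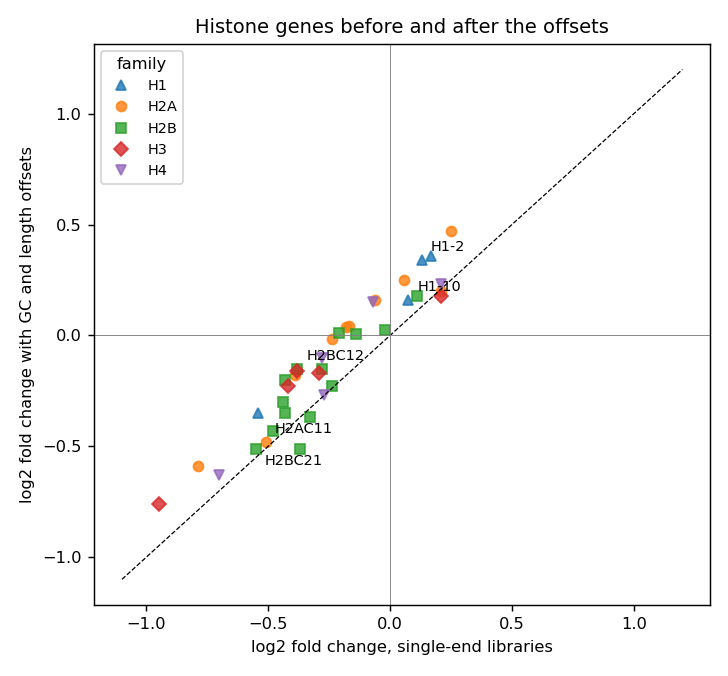
Single-end log2 fold change of each of the 38 histone genes without (horizontal axis) and with (vertical axis) offsets for GC content and transcript length. Shapes mark the family and the dashed line equality. Most points lie above the line: the median goes from -0.27 to -0.15, and H2BC12 from -0.38 to -0.15.

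Replicate 1 ran against the single-end libraries in these genes, as it did across all genes. Of the 38, 30 had the opposite sign in the pair of number 1: 25 of the 29 that were below 0 and 5 of the 9 above 0, among them all 3 that were called. The share of opposite signs over all tested genes was not computed, so the count is not shown to be particular to histone genes. The difference between the paired-end and single-end effects passed the test (edgeR interaction term, adjusted p under 0.05) for 5 histone genes, H2AC11, H2AC16, H2BC12, H2BC21 and H4C5, and for 42.5% of all genes. Each treatment has only 1 paired-end library, so only the single-end libraries inform its error. H2AC16 and H4C5 each rest on 2 reads in the library labelled DMSO of number 1. Sequencing layout and the pair of number 1 cannot be told apart in this design.

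For comparison 4 lists of related genes, 92 entries in all, were set beside the members, using the single-end libraries. No gene of any list was called in the 8-library fit. Of 10 tested replication-independent histone genes, a list that holds H1-10 again, 2 were higher and 1 lower (median 0.028). Over all genes 23.8% were higher and 17.6% lower. H3-3A and H3-3B, which encode the replacement histone H3.3, went opposite ways: H3-3A measured 89, 81.9 and 90.1 CPM in CR31B replicates 2 to 4 and 108, 103 and 106 CPM in DMSO (-0.28 ± 0.0532, edgeR adjusted p = 0.00197). H3-3B measured 1302, 1279 and 1312 CPM with CR31B and 1181, 1059 and 1062 CPM with DMSO (0.24 ± 0.0583, edgeR adjusted p = 0.00775; 0.14 with upper-quartile scaling). MACROH2A2, a macroH2A variant gene, was at 0.22 ± 0.0544 (edgeR adjusted p = 0.00761); this call ended with upper-quartile scaling (edgeR adjusted p = 0.102). Neither H2AZ1 nor H2AZ2, which encode H2A.Z, was called.

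Of 29 tested genes of histone mRNA 3′ end processing, transcription and decay, 10 were higher and 3 lower (23.8% and 17.6% of all genes). The median was 0.087, and -0.013 with the GC and length offsets. Upper-quartile scaling called 8 of the 29 higher and 8 lower, against 18% and 27% of all genes. ERI1, an exonuclease that trims the histone stem-loop, was the clearest, at 93.4, 87.1 and 91 CPM in CR31B replicates 2 to 4 and 49.1, 49.7 and 52.6 CPM in DMSO (0.84 ± 0.0525, edgeR adjusted p = 1.94e-06). CASP8AP2, a component of histone locus bodies also known as FLASH, rose (0.54 ± 0.0468, edgeR adjusted p = 1.27e-05), as did the transcription factor YY1 (0.60 ± 0.0535, edgeR adjusted p = 1.46e-05). UPF1, which joins in histone mRNA decay, was at 0.62 ± 0.0892, and the terminal uridyltransferase genes TUT4 and TUT7 at 0.44 ± 0.0518 and 0.38 ± 0.0697; all 3 were called higher. With the GC and length offsets CASP8AP2 was at 0.30, TUT4 at 0.25 and TUT7 at 0.20, each still called. CCNE1, encoding cyclin E1, was lower (-0.44 ± 0.0616, edgeR adjusted p = 0.000299). CPSF3, of the same list, was lower as well (-0.26 ± 0.0605, edgeR adjusted p = 0.00588), without overlap, and was at -0.31 with the offsets.

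SLBP and NPAT, which act on these genes most directly, were not called with the main settings. SLBP measured 135, 112 and 131 CPM in CR31B replicates 2 to 4 and 141, 142 and 146 CPM in DMSO, without overlap (-0.18 ± 0.0684, edgeR adjusted p = 0.0545). It was called lower with the replicate block (edgeR adjusted p = 0.0136) and with upper-quartile scaling (-0.28, edgeR adjusted p = 0.00332). In the replicate 1 libraries SLBP stood at 130 and 132 CPM. NPAT measured 26.6, 22.5 and 26.7 CPM with CR31B and 27.2, 26.3 and 27.7 CPM with DMSO, which overlapped (-0.099 ± 0.0764, edgeR adjusted p = 0.333); with the GC and length offsets it was at -0.32 (edgeR adjusted p = 0.00734) and with upper-quartile scaling at -0.20 (edgeR adjusted p = 0.042).

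Among 26 tested histone chaperones and importers, 12 were higher and 4 lower (median 0.16). With the GC and length offsets 7 were higher and 4 lower (median 0.018). The shares over all genes were 23.8% higher and 17.6% lower, and 20.3% and 19.3% with the offsets. UBN1, a subunit of the HIRA complex that deposits H3.3, rose by 0.68 ± 0.0579 (edgeR adjusted p = 1.09e-05), RBBP7, a histone-binding subunit of several chromatin complexes, by 0.48 ± 0.0477 (edgeR adjusted p = 2.96e-05), and DAXX, an H3.3 chaperone, by 0.43 ± 0.0459 (edgeR adjusted p = 4.36e-05). HJURP, the CENP-A chaperone, fell by 0.33 on the log2 scale (edgeR adjusted p = 0.00136).

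S phase genes moved both ways, 7 higher and 9 lower of 24 (median -0.093), against 23.8% and 17.6% of all genes. CDC6, which loads the MCM helicase, measured 188, 186 and 183 CPM in CR31B replicates 2 to 4 and 109, 120 and 118 CPM in DMSO (0.68 ± 0.0521, edgeR adjusted p = 5.72e-06). DTL, a substrate receptor of a PCNA-coupled ubiquitin ligase, and CLSPN, a checkpoint mediator, were higher as well (0.67 ± 0.0518 and 0.56 ± 0.0568). UNG, a uracil glycosylase, fell by 0.69 on the log2 scale (edgeR adjusted p = 4.19e-05), RRM2, a ribonucleotide reductase subunit, by 0.52 (edgeR adjusted p = 0.0012) and E2F1 by 0.43 (edgeR adjusted p = 0.00289). Upper-quartile scaling called 4 of the 24 higher and 13 lower, against 18% and 27% of all genes.

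**Figure D5:**
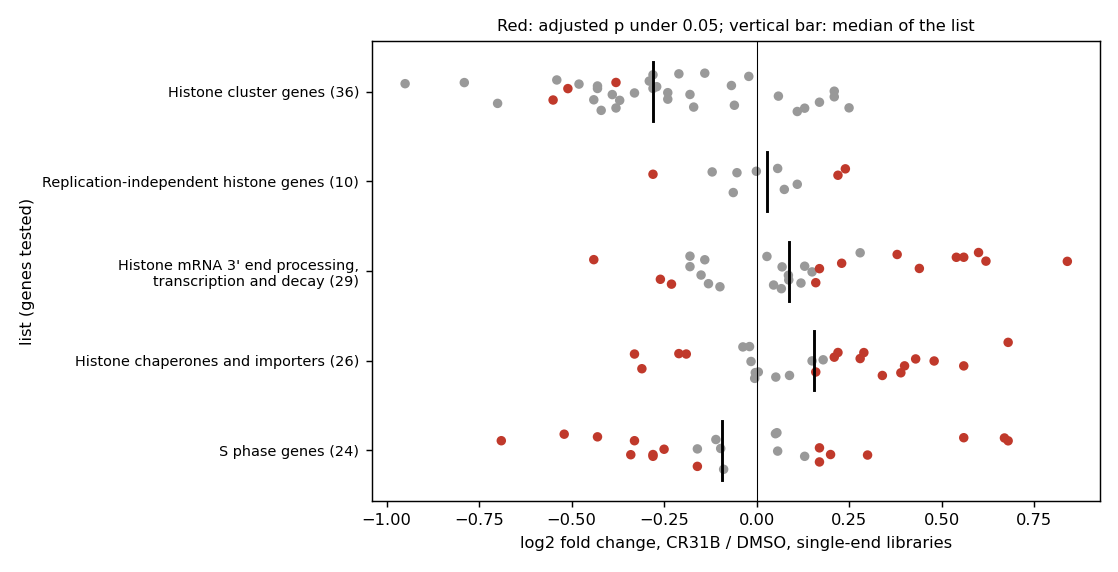
Single-end log2 fold change (CR31B over DMSO) of each tested gene of the histone clusters and of the 4 comparison lists; red points have an adjusted p under 0.05 and bars are medians. The 36 cluster genes have a median of -0.28 with 3 red points, and the chaperones and importers 0.16 with 16 (12 higher and 4 lower). Over all tested genes 41.3% had an adjusted p under 0.05.

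Marker levels also differed between groups. In the single-end libraries the adrenergic markers summed to 6446 ± 353 CPM with CR31B and 4988 ± 180 CPM with DMSO (SD, n = 3 each). Of these 9 markers 5 were called higher and 2 lower, against 23.8% and 17.6% of all genes. The mesenchymal markers summed to 535 ± 68.1 and 425 ± 46.9 CPM, mostly VIM. The blood marker PTPRC was between 0.242 and 0.572 CPM with CR31B and 0.578 and 0.808 CPM with DMSO, and the epithelial markers summed to at most 0.253 CPM in any library. The part of these differences in the histone values was not tested.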

How the data were processed

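RNA of IMR32 cells was measured in 8 libraries, 4 with CR31B and 4 with DMSO, grouped and numbered by their labels. The deposited table gives raw counts per gene, whole numbers made by the authors and not normalized. Per the submitters' processing notes FastQC 0.11.7, STAR 2.7.2b, edgeR 3.36.0, limma 3.50.3 and GRCh38 were used, with no roles stated; the counting tool, its strand setting and the annotation are not given in the sources used here. The labels' protocols name 250 ng of RNA, 15 PCR cycles, 75 read cycles and a small RNA kit, while the molecule is given as polyadenylated RNA. Total counts were 43687828 to 64715535. Without molecular identifiers, PCR copies cannot be separated, and p-values measure the spread between these libraries.

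Identifiers were matched to GENCODE release 29 (58515 of 58787). Genes passing edgeR's filterByExpr were scaled by TMM and tested by the edgeR quasi-likelihood test (R 4.3.3, edgeR 4.0.16), 2-sided, with Benjamini-Hochberg adjustment over all genes tested and a threshold of 0.05. The first fit used 8 libraries with layout as a covariate, the second the 6 single-end libraries. CPM are TMM-scaled, and differences of 2 libraries use a prior count of 1. Alternatives were other scalings and filters, DESeq2 1.42.0, limma 3.58.1 (voom), GC and length offsets, the replicate block, and each library or pair left out. Same-numbered single-end libraries deviated together over genes (correlations 0.208, 0.388 and 0.157 for numbers 2, 3 and 4), so the numbers were taken to pair them; in all 8 libraries the correlations were -0.527, -0.078, 0.159 and -0.108. On counts simulated for the 6-library comparison (16696 genes, 200 changed 2-fold) 87% were recovered with 5 false among 179 calls. For the 8-library comparison (16518 genes) 92.5% were recovered with 9 false among 194. Every simulated gene had the same spread beyond that of counting, and no layout effect or reversed pair was put in. These shares therefore do not give the recovery for genes under 1 CPM, or for the 8 libraries with the pair of number 1.

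Shared sequence was the percentage of a gene's 75-base transcript windows found in another gene. Named genes were, per family, the 2 with the highest mean CPM, every gene called in the single-end fit, those beside the count minimum, and in each comparison list the 3 smallest adjusted p-values plus SLBP and NPAT; other names were chosen after their values were seen. The members, lists and the split of replicate 1 were chosen with earlier results of these data known. Sequences come from GENCODE (stem-loops) and RefSeq (promoters). Of the genes meeting the rule, 1 is not reported here.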

Additional observations from a re-analysis of the deposited data

Results flagged for a closer look

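In 76 groups of 4 libraries (38 genes, 2 treatments) 4 had a library far from the other 3, with a gap, as a share of the range, above Dixon's critical value; chance flags about 1 in 20 groups, or 3.8 here, and 3 of the 4 are replicate 1. The gap was 0.985 of the range for H2BC21 with CR31B (the library labelled CR31B of number 1, at 3.01 CPM against 1.81 to 1.83) and 0.918 for H2AC25 in DMSO (number 1, at 4.43 CPM). It was 0.86 for H2AC14 with CR31B (number 1, at 0.691 CPM; 82.4% of this gene's windows are shared with other genes) and 0.868 for H2AC8 in DMSO, where replicate 3 was the lowest at 0.237 CPM.

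The effect of treatment differed between the paired-end pair and the single-end libraries by an edgeR interaction term for 5 histone genes; each treatment has only 1 paired-end library. The difference (paired-end minus single-end, log2) was 0.96 for H2AC11 (adjusted p = 0.0493), 0.52 for H2BC12 (0.0366), 0.99 for H2BC21 (0.0139), 3.83 for H2AC16 (0.00368) and 3.85 for H4C5 (0.00519). H2AC16 and H4C5 each had 0.0479 CPM in the library labelled DMSO of number 1, from 2 reads.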

How the results depend on the processing

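In the 8-library fit no gene was called, except where replicate 1 was touched: leaving out its CR31B library gave 6920 genes and 4 histone genes, its DMSO library 6906 and 3, and both 6901 and 3, so that over all single omissions the counts ran from 0 to 6920 genes and from 0 to 4 histone genes.

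In the single-end libraries, upper-quartile scaling and total counts each called 6 histone genes in place of 3. Without the pair of number 2 there was 1, and without that of number 4 there were 0 (2 at an unadjusted p under 0.05), with 3981 genes in place of 6901. Leaving out single libraries gave 5582 to 6727 genes, 2 to 4 histone genes and a median log2 fold change of -0.33 to -0.17. The replicate block, which treats same-numbered libraries as paired, called 8540 genes and 5 histone genes and ended no histone call. With GC and length offsets and the block together 5 histone genes were called, 2 higher and 3 lower. The median moved from -0.27 to -0.15 with GC and length offsets, with or without the block.

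Among the named histone genes, signs turned for ones not called with the main settings. H1-10, called higher with the offsets, went to -0.022 with upper-quartile scaling, which moved the median of all genes to -0.10, and -0.0042 with total counts. H2AC25 went to -0.036 and -0.018 under these, to -0.037 without CR31B replicate 3 (0.19 without CR31B replicate 2) and to -0.048 without the pair of number 3. H2AC20 went to 0.043 with the offsets and 0.049 with offsets and block, and H4C8 to 0.0095 without the pair of number 4. H4C11 went to 0.15 with the offsets (0.15 with the block), 0.049 without CR31B replicate 3, 0.13 without CR31B replicate 4 (-0.45 without CR31B replicate 2), 0.15 without DMSO replicate 3, and 0.26 and 0.17 without the pairs of number 3 and 4. Apart from fewer libraries, the cause of these changes was not tested. Under 1 CPM none of the 27 histone genes was called with the main settings, down to a log2 fold change of -0.95. Of these genes H3C13 was called lower with upper-quartile scaling (-1.04, edgeR adjusted p = 0.0385). It was also called with total counts and without DMSO replicate 3.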
